A study of Mus musculus with 33 samples.

Results

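The genes described here encode enzymes that convert foreign chemicals. They were taken by name from both deposited expression tables: every gene whose symbol starts with Cyp1, Cyp2, Cyp3, Cyp4, Ugt1, Ugt2, Gsta, Gstm, Gstp, Gstt, Gsto, Fmo and a digit, Aldh, Sult or Ces, together with Cbr2. The rule gave 128 genes of 15988 in either table. Of these, 110 were in the table of the whole main olfactory epithelium (MOE), 90 in the table of sorted mature olfactory sensory neurons (mOSN), 72 in both, 38 in the MOE table alone and 18 in the mOSN table alone. The prefixes also take in 12 other cytochromes (Cyp11 to Cyp46), which are kept as a family of their own. Most are known from steroid, retinoid and vitamin D metabolism, such as Cyp19a1 and Cyp26b1.

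All animals were mice at 3 weeks of age, either Dnmt3a +/+ (WT), Dnmt3a +/- (Het) or Dnmt3a -/- (KO), where Dnmt3a encodes a de novo DNA methyltransferase. For MOE, each genotype gave 1 library after 60 min with 80 µL of water on paper and 1 library after 60 min with 80 µL of octanal, acetophenone and amyl acetate in equal parts (called odor), both after 10 min in a clean cage. For mOSN, isolated by flow cytometry with no treatment given, the table holds 1 value per genotype for 2 libraries, so no spread is known. The labels give no strain, sex or number of animals per library and do not say how the null allele was made. The MOE libraries came from 100 ng of RNA by the NuGEN Encore Complete kit. In mOSN the kit followed the genotype: ScriptSeq (200 ng) for WT, NuGEN for KO and 1 library of each kit for Het.

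Reads recovered from the values of the listed genes summed to between 9410063 (KO water) and 17639584 (Het odor) per MOE library. Dnmt3a itself stood in MOE (water, odor) at 84.4 and 89.0 for WT, 50.3 and 66.6 for Het, 56.1 and 48.3 for KO, and its pooled mOSN value was 175 for WT, 120 for Het and 56.2 for KO. The targeted transcript was thus lower in both mutants and still counted in KO. The Het libraries stood apart in their neurons: 13 markers of mature olfactory neurons, Omp among them, had sums (water, odor) of 25793 and 19633 for WT and 21958 and 28939 for KO, against 11168 and 6480 for Het. Sorted neurons carried their label, since 12 of those 13 markers were at least 2-fold higher in WT mOSN than in WT MOE.

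As background, enzymes of this kind work in steps. Cytochromes P450 and flavin monooxygenases (FMO) add oxygen to a small molecule, carboxylesterases (CES) split esters, aldehyde dehydrogenases (ALDH) oxidize aldehydes, and UDP-glucuronosyltransferases (UGT), glutathione S-transferases (GST) and sulfotransferases (SULT) then attach groups that make the product soluble. In the nose they are known from sustentacular cells, the supporting cells that surround the neurons, and from Bowman glands, which secrete the mucus, and they are known to clear inhaled toxicants and to convert odorants.

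Cytochromes of family 2 led the MOE table. Values are per gene length, so levels of different genes can be set side by side, and each library is 1 sample with no replicate. Cyp2a5, known for oxidizing nicotine and coumarin, stood (water, odor) at 8733 and 17676 for WT, 13618 and 15272 for Het, 12419 and 13908.5 for KO. It ranked between 16th and 23rd of all 14613 genes in each library, and its lowest value was the WT water library. Cyp2g1, known almost only from olfactory mucosa, stood at 7492 and 9777 for WT, 7768 and 10760.2 for Het, 9468 and 8821 for KO, with overlapping genotypes and treatments. Cyp2a4, a steroid hydroxylase, stood at 4181 and 8883 for WT, 6797 and 7518 for Het, 6044 and 6794 for KO. Cyp2a4 and Cyp2a5 are near-identical copies, and their values kept nearly 1 ratio over the 6 libraries, Cyp2a4 standing at between 47.9% and 50.3% of Cyp2a5. How reads that match both genes were assigned is not given in the sources used here, so the split between them is uncertain.

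The sequences before the start sites of 5 members are shown because they carry the contrasts described below: the pair of copies that led the whole tissue, the sulfotransferase that led the sorted neurons, and the neighbours Cyp1a2 and Cyp1a1, whose odor differences in KO had opposite signs. Each line gives the 250 bases before the annotated start, 5′ to 3′ on the gene's strand, from RefSeq (GRCm38.p6), a later build than the one the authors used. Capitals mark CG, the dinucleotide that DNA methyltransferases mainly methylate.
Cyp2a5 (chr7:26835089-26835338, + strand): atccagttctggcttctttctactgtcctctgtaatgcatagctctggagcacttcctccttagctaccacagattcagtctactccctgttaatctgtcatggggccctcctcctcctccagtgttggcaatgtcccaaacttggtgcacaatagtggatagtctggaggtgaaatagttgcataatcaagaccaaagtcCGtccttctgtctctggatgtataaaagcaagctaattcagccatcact
Cyp2a4 (chr7:26306942-26307191, + strand): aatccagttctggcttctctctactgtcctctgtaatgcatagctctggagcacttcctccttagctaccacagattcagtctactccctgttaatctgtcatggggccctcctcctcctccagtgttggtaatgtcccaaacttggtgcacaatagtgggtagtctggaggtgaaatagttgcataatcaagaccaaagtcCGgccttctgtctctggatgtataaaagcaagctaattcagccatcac
Sult1d1 (chr5:87569007-87569256, - strand): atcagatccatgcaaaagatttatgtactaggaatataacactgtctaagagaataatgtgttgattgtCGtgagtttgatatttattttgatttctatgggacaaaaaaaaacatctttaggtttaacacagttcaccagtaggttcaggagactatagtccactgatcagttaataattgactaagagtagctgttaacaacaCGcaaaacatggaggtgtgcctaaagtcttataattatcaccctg
Cyp1a2 (chr9:57683656-57683905, - strand): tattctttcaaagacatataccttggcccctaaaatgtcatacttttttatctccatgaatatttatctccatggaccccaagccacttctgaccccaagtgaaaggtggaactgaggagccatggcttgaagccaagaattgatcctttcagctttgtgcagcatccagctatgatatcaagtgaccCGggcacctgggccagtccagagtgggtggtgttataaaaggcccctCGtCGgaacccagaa
Cyp1a1 (chr9:57697363-57697612, + strand): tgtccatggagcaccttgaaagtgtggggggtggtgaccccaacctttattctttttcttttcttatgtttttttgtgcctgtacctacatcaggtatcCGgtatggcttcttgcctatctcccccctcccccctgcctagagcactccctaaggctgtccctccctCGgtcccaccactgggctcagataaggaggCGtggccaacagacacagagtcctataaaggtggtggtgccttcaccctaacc

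Capitals are rare in all 5 lines. The 300-base windows, which run 50 bases past the start, held 2 CG in Cyp2a5, 1 in Cyp2a4, 3 in Sult1d1, 3 in Cyp1a2 and 4 in Cyp1a1. Among 101 members with such a window the median was 4 CG, against 7 over all 27025 genes in the table, and 76.2% of the members had fewer than 10 CG against 55.6% of all genes. The Cyp2a5 and Cyp2a4 windows, shifted by 1 base, were identical at 294 of 299 bases (98.3%). TATAAA stood on the gene's strand with its first base 28 to 30 bases before the start in 4 of the 5 (Cyp2a5, Cyp2a4, Cyp1a2 and Cyp1a1), and on either strand it was in 19.5% of the members' windows against 13.6% of all windows. GCGTG, the core letters of the site known for the aryl hydrocarbon receptor, was found on either strand in Cyp1a1, with its first base 54 bases before the start, and in Sult1d1, but not in Cyp1a2. It was in 26.02% of the members' windows against 32.4% of all windows. These are matches of letters, not measured binding sites.

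Other cytochromes followed at lower levels. Cyp2f2, known for activating naphthalene, ranged from 2915 in WT water to 6564 in both WT odor and Het odor. Cyp1a2, which oxidizes aromatic amines, ranged from 673 in WT water to 1502 in WT odor. Cyp4b1, which turns several protoxins into reactive products, stayed between 57.4 and 113, and Cyp2b10, the phenobarbital-inducible cytochrome of liver, between 49.1 and 124. Of the 35 members of CYP1 to CYP4 in MOE, the median mean level was 28.5, so the family spans a wide range around a few very abundant genes. Among the 6 other cytochromes measured, Cyp27a1, a mitochondrial sterol hydroxylase, had the highest mean, with 56.3 to 108.

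Of the further oxidizing, reducing and hydrolysing enzymes, a single reductase stood with the top cytochromes. Cbr2, a carbonyl reductase known from lung, stood (water, odor) at 7338 and 9681 for WT, 9022 and 12877 for Het, 9825 and 6508 for KO. Its lowest library was KO odor and its highest Het odor. Ces1d, a carboxylesterase, stood at 1001 and 1700.0 for WT, 1289.5 and 1784 for Het, 1346 and 1685 for KO. The next carboxylesterases were far below it: Ces1a was at most 142 and Ces1e at most 80.9. Aldh1a1, which oxidizes retinal, ranged from 784 in WT water to 1652 in WT odor, and its near copy Aldh1a7 from 261 in Het water to 429.9 in KO water. Aldh2, the mitochondrial acetaldehyde dehydrogenase, ranged from 302 in WT water to 556 in Het odor. Fmo2 and Fmo1 were the abundant flavin monooxygenases, from 243 to 509 and from 237 to 366, while Fmo5 reached at most 62.6 and Fmo4 rested on at most 10 reads. Aldh3a1, known as a crystallin-like enzyme of the cornea, ranged from 38.4 in WT water to 156 in WT odor, Aldh3a2, which oxidizes fatty aldehydes, from 89.6 to 125, and Aldh1a3, which makes retinoic acid, from 25.4 to 52.5.

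Among the conjugating enzymes a sulfotransferase led. Sult1c1 stood (water, odor) at 5739.5 and 7989.7 for WT, 7214 and 4121 for Het, 5986 and 6161 for KO. The olfactory UDP-glucuronosyltransferase listed as Ugt2a1 ranged from 1984 in WT water to 3094 in KO odor. Its deposited identifier is that of Ugt2a2 in the reference names, and these 2 genes share exons, so which transcript was counted is uncertain. Gstm1 ranged from 1202 in WT odor to 1862 in Het odor, and Gsta4, which conjugates products of lipid peroxidation, from 824 in WT water to 1601 in KO water. Gsta3, known for conjugating aflatoxin epoxide, ranged from 136 in WT water to 263 in Het water. Gstm2-ps1 had between 112 and 363 and shares sequence with Gstm2, so both values are uncertain. The other glucuronosyltransferases were scarce: Ugt2a3 was at most 50.9 and Ugt1a7c at most 22.6. Sult1e1, the estrogen sulfotransferase, ranged from 252 to 585.

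Many members lie next to each other. In the RefSeq order of protein-coding genes (GRCm38.p6), 68 of the 126 members that could be placed directly neighboured another member, in 23 runs, such as Cyp2b19, Cyp2g1 and Cyp2a5, or Sult1b1, Sult1d1 and Sult1e1. Some neighbours stood at unlike levels: Cyp2b19, with at most 67.5, lies beside Cyp2g1, and Sult1b1, with at most 15.0, lies beside Sult1d1. Others stood closer, such as Fmo1 and Fmo2, with MOE means of 307 and 320. Levels within runs were not compared as a set. The 110 enzymes together made up between 1.98% (Het water) and 2.44% (Het odor) of the summed values of a library, and the 6 highest in each library held 72.5% to 75.9% of that share.

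**Figure D1:**
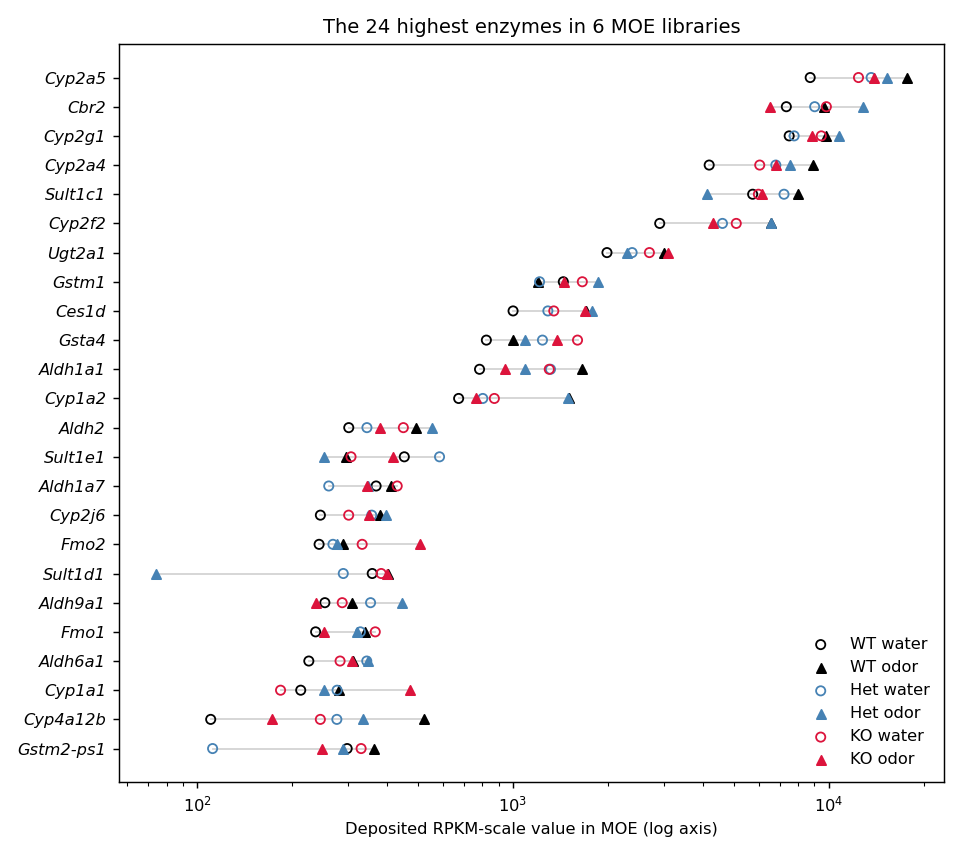
Deposited value per gene length (log axis) of the 24 enzymes with the highest mean over the MOE libraries, 1 point per library (open circles water, filled triangles odor, colours genotype) and a grey line from lowest to highest. Cyp2a5 reached 17676 in WT odor, and the WT water library, the open black circle, was the lowest of the 6 for 47 of all 110 enzymes.

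The WT water library was the lowest of the 6 for 47 of 110 enzymes (42.7%), against 17.2% of all genes. The level of this library enters the comparisons below that use it. In whole tissue, fewer cells of a type and less RNA per cell cannot be told apart.

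Sorted neurons held little of the enzymes that led the whole tissue. This comparison sets 1 pooled mOSN value against 1 MOE library, in tables normalized separately, so it has no test and differences are given beside those of all genes. Of the 72 enzymes in both tables, 46 were at least 2-fold lower in WT mOSN than in WT MOE with water, where 24% of all 13369 shared genes were, 38 were at least 4-fold lower (12.8% of all genes) and 26 at least 10-fold lower (5.15%). In Het 48 were at least 2-fold lower (24.7% of all genes), 39 at least 4-fold (12.7%) and 32 at least 10-fold (5.13%). In KO, where both columns came from the same kit, the counts were 42 (21.5%), 34 (8.39%) and 27 (2.72%). The median difference was -2.57 on the log2(value + 0.5) scale, against -0.00 over all shared genes. It was -2.56 in Het and -1.81 in KO, where all genes had -0.03 and -0.09. Against the WT odor library instead, 51 enzymes were at least 2-fold lower (23.7% of all genes), 32 at least 10-fold lower (5.55%) and 4 at least 2-fold higher (19.2%), with a median of -2.79 (all genes 0.04).

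Most of the abundant enzymes of MOE stood at a few percent of their level there. Cyp2a5 was 92.6, 57.3 and 56.2 for WT, Het and KO mOSN, and its WT value was 1.06% of the value in WT MOE with water. Cyp2a4 was 6.12, 2.14 and 12.98, or 0.146% of MOE in WT. Cbr2 was 56.2, 66.1 and 55.3 (0.766% in WT), and Cyp2f2 was 28.0, 45.2 and 37.3 (0.960%). All 12 enzymes with a mean of 1000 or more in MOE were below 10% of their MOE level in WT mOSN, from 0.146% for Cyp2a4 to 8.83% for Ugt2a1, with a median of 2.04%. In Het the same 12 ranged from 0.0315% to 18.0% and in KO from 0.215% to 28.9%, Ugt2a1 again being the highest, with medians of 1.18% and 1.28%. In MOE, Cyp2a4 stood near 1 level relative to Cyp2a5, but in mOSN it was 6.61%, 3.73% and 23.1% of Cyp2a5 in WT, Het and KO. Supporting cell markers were measured in the same columns: of 11 sustentacular markers in both tables, 10 were at least 2-fold lower in WT mOSN, with a median of -4.38, and Krt18, the keratin of these cells, stood at 4.54% of its MOE value. The part of such RNA in the mOSN values of the enzymes was not tested.

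A few enzymes went the other way. Sult1d1, a sulfotransferase of small phenols and catecholamines, was 2454, 2389 and 1922 for WT, Het and KO mOSN, against 358, 290.1 and 383 for the matching MOE libraries with water. It ranked between 77th and 79th of all genes in the 3 mOSN columns and made up 46.04% of the members' summed values in WT mOSN. Sult4a1, a sulfotransferase known from brain, was 733, 759 and 525 in mOSN, against 282, 240.2 and 230.1 in MOE. Cyp2j12, a cytochrome of a family that oxidizes arachidonic acid, was 111, 127 and 50.01 in mOSN, against 25.3, 11.6 and 24.7 in MOE. Cyp2s1 was higher in WT alone: it was 55.2, 27.7 and 24.4 in mOSN, against 21.7, 31.5 and 25.4 in MOE with water. In WT, Gsto2, an omega-class transferase, was 11.03 in mOSN against 1.25 in MOE, the latter from 6 reads. In all, 6 of 72 enzymes were at least 2-fold higher in WT mOSN than in WT MOE with water, a smaller share than the 17.3% of all genes, 8 in Het (19.5% of all genes) and 13 in KO (16.3%).

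**Figure D2:**
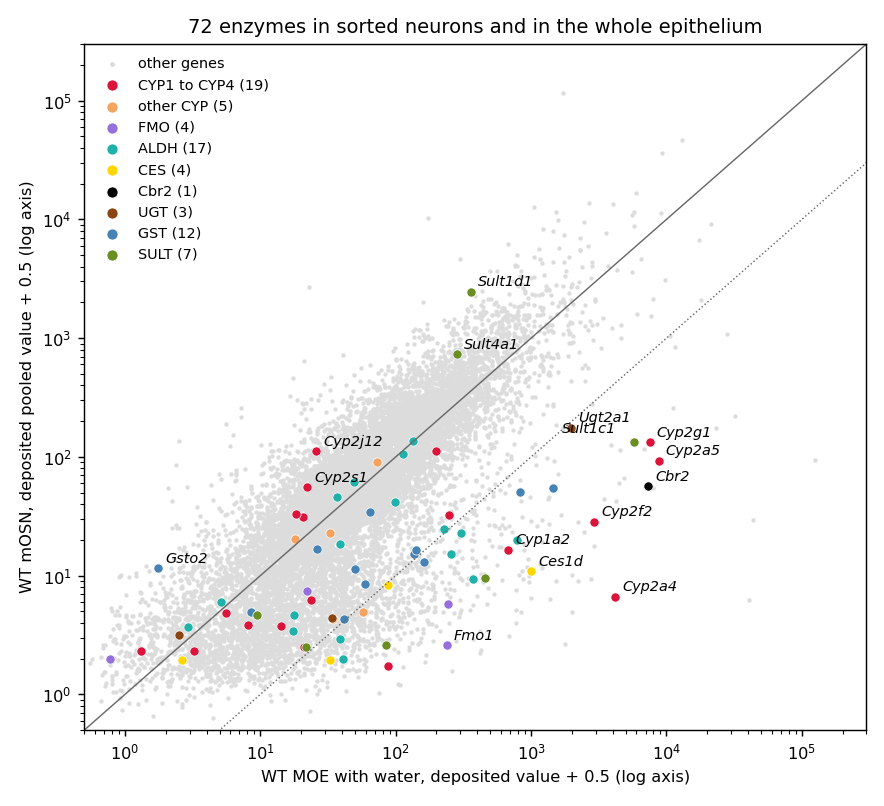
Pooled WT mOSN value against the WT water MOE library (both as value + 0.5 on log axes) for the 72 enzymes in both tables, coloured by family with the number of members, over the other shared genes in grey; the solid line marks equal values and the dotted line 10-fold lower in mOSN. Sult1d1 and Sult4a1 lie above the solid line, while 26 enzymes lie under the dotted line, among them all 12 with a mean of 1000 or more in MOE.

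Families differed in how far they lay from equality. The median difference was -0.51 for 5 other cytochromes, -1.91 for 19 members of CYP1 to CYP4, -1.93 for 17 ALDH, -2.95 for 12 GST and for 3 UGT, -3.12 for 7 SULT, -3.49 for 4 FMO and -3.73 for 4 CES. Families also spread within themselves: among ALDH, Aldh5a1 (106 in WT mOSN, 113 in WT MOE with water) and Aldh3b1 (135 and 134) stood near equal levels, while Aldh1a1 was 19.6 against 784. Members at least 10-fold lower in mOSN had few CG near their start: a median of 2 over the 19 with a window, with a range of 0 to 11. Members in both tables had a median of 5 over 55 windows, and those at least 2-fold higher in mOSN 4 over 5 windows, so a low number was common to most members. Among all genes at least 10-fold lower the median was 14, and over all shared genes with a window 20.

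The odor comparison asks what 60 min of odor changed. More enzymes were higher than lower with odor, mostly in WT, and none passed the test. Limma called 0 of 110 enzymes (2 of 14602 genes, 0.0137%, were called higher and 0 lower), as did voom on the recovered reads, and an unadjusted p under 0.05 was reached by 6 enzymes higher (3.01% of all genes) and 0 lower (1.86%). Of the 110, 78 were higher (50.1% of all genes) and 32 lower with odor, with a median log2 difference of 0.21, against 0.00 over all genes. Without the WT pair 61 were higher, with a median of 0.07. The genotypes did not move alike: the median was 0.40 in WT (82 higher), 0.15 in Het (69 higher) and -0.02 in KO (51 higher). Of all genes 49.5%, 52.5% and 52.9% were higher in WT, Het and KO. At least 2-fold higher were 26 enzymes in WT (5.22% of all genes), against 6 for Het (4.26%) and 10 for KO (5.4%). At least 2-fold lower were 5 for WT (7.09%), 7 for Het (6.29%) and 7 for KO (4.1%). A total of 27 were higher in each of the 3 genotypes (15.6% of all genes) and 6 lower in each (11.9%).

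The enzymes with the smallest p among those higher with odor included 2 carboxylesterases and 2 cytochromes of the Cyp4f group, whose members hydroxylate fatty acids and leukotrienes. Cyp4f17 was 23.0, 17.6 and 22.5 with water and 38.4, 32.1 and 39.8 with odor (WT, Het, KO), a log2 difference of 0.79 ± 0.21 (SE; limma adjusted p = 0.882). Ces1a was 87.9, 88.9 and 43.1 with water and 142, 110.2 and 116 with odor, a difference of 0.80 ± 0.24. For both genes the 3 odor libraries lay above the 3 water libraries, and Cyp4f17 rested on 30 to 73 reads per library. Both were named for a small p, which favours such separation, so it is not separate evidence.

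Ces1d and Cyp4f15 were also higher in each genotype, by a log2 of 0.52 ± 0.17 and 0.40 ± 0.14. Cyp4f15, also named by its p, was 149, 163 and 157 with water and 203, 212 and 202 with odor, again without overlap. Cyp3a13, of the family that oxidizes many drugs, was 33.5, 69.3 and 54.7 with water and 118, 128 and 55.4 with odor, and its KO libraries were nearly equal. All 5 of these enzymes had the same adjusted p of 0.882. All 9 carboxylesterases in MOE had a positive fitted difference, with a median of 0.37, and all 9 sulfotransferases a negative one, with a median of -0.34, where 50.1% of all genes were positive. By genotype these signs were mixed: of 9 carboxylesterases 7, 7 and 5 were higher with odor in WT, Het and KO, and of 9 sulfotransferases 4, 2 and 5.

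The lower end was less clear. Sult1e1 was 453, 585 and 307 with water and 295, 252 and 418 with odor (WT, Het, KO), and Sult6b1 21.4, 24.6 and 42.2 against 20.1, 11.9 and 30.4. Gstt1, a theta-class transferase, was 40.4, 38.9 and 39.5 against 23.8, 43.9 and 26.2, and Gstt2 25.7, 23.1 and 18.6 against 11.5, 13.6 and 20.5. Cyp2b9, with 2 to 9 reads per library, was lower with odor in all 3 genotypes. Of the other 4 genes, Sult6b1 alone was lower in each genotype.

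**Figure D3:**
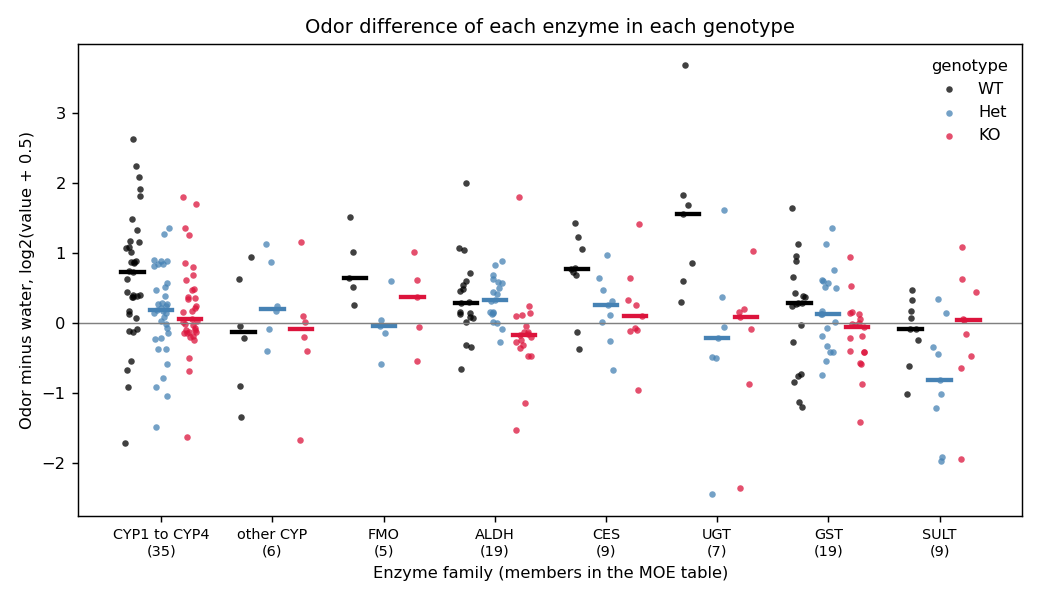
Difference between the odor and the water library, as log2(value + 0.5), for each of the enzymes in MOE except Cbr2, by family (number of members under the name) and genotype; points are genes and thick bars are medians. The WT median of CYP1 to CYP4 lay at 0.72, that of Het at 0.18 and that of KO at 0.05.

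Between the WT libraries the sum of all 110 enzymes went from 50061 with water to 79849 with odor, between the Het libraries from 65620 to 75867, and between the KO libraries from 66421 to 64088. Of the 12 enzymes with a mean of 1000 or more, 11 were higher with odor for WT, 8 for Het and 5 for KO. Their medians were 0.68, 0.32 and -0.15, against 0.07, 0.10 and -0.09 over all 296 genes with such a mean. Sustentacular markers were higher in sum with odor in each genotype, while the enzyme sum was higher in WT and Het and lower in KO. These 13 markers, none of them an enzyme of the rule, had sums (water, odor) of 4906 and 8888 for WT, 5629 and 7539 for Het, 5793 and 7498 for KO. Their median odor differences were 0.69, 0.48 and 0.29, and 12 of 13 had a positive fitted difference. The 11 Bowman gland markers had sums of 27270 and 97596 for WT, 108889 and 42780 for Het, 59625 and 62231 for KO. These sums were carried by the secreted odorant binding proteins Obp1a and Lcn11. By gene, 9, 7 and 8 of the 11 were higher with odor in WT, Het and KO, with medians of 0.98, 0.15 and 0.25. The fitted difference was positive for 9 of the 11, with a median of 0.59. The part of cell composition in the enzyme differences was not tested.

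**Figure D4:**
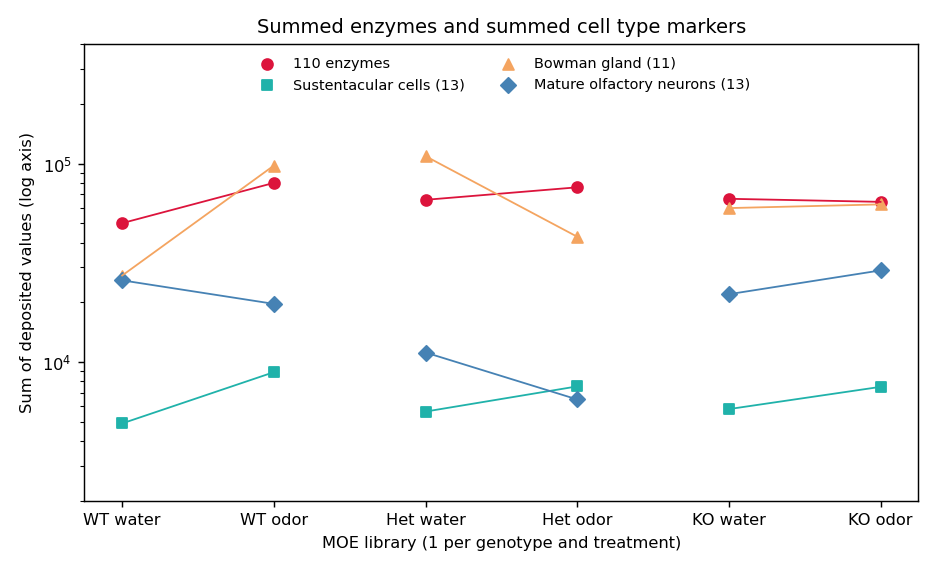
Summed deposited values (log axis) of the 110 enzymes and of 3 marker lists (number of genes in brackets) in each MOE library, with a line joining water and odor of 1 genotype. The enzymes and the sustentacular markers were both lowest in WT water (50061 and 4906), and the mature neuron markers were lowest in Het odor (6480).

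The comparison of KO with WT asks whether loss of Dnmt3a changed these enzymes in the epithelium. No direction held for the whole set. Limma called 0 of 110 enzymes (0% of all genes in either direction), as did voom, and an unadjusted p under 0.05 was reached by 4 enzymes higher (1.27% of all genes) and 0 lower (0.966%). In all, 59 were higher (53.6%, against 48.5% of all genes) and 51 lower in KO, with a median of 0.04 (-0.01 over all genes). With water alone 73 were higher (49.1% of all genes), with a median of 0.22, and with odor alone 39 (50.1%), with a median of -0.19. Without the WT water library the median of the fit was -0.19 and without the KO water library -0.14. Both KO libraries lay above both WT libraries for 7 enzymes (12.4% of all genes) and below them for 11 (13.3%).

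Among the 19 glutathione transferases, the fitted difference was positive for 16 and negative for 3 (48.5% of all genes were positive), and none passed. With water alone 15 were higher in KO and with odor alone 9, and Het against WT, which shares the WT libraries, also gave 16 and 3. Gsta4 stood (water, odor) at 824 and 999 for WT, 1601 and 1382 for KO, a log2 difference of 0.71 ± 0.22 (SE; limma adjusted p = 1.00). Gsta1, which shares sequence with Gsta2, stood at 12.2 and 12.01 for WT, 21.2 and 31.0 for KO (1.05 ± 0.31), from 19 to 43 reads. Groups did not overlap for either gene, but both were named for a small p, which favours such separation. In Het both were also above WT, Gsta4 with 1239.8 and 1092 and Gsta1 with 25.7 and 36.8.

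Cyp2e1, which oxidizes ethanol and small solvents, stood at 130.2 and 119 for WT, 192 and 294 for KO, a difference of 0.93 ± 0.28. Fmo2 had 243 and 289.9 for WT, 333 and 509 for KO (0.63 ± 0.20), and Ces1e 32.3 and 53.7 against 51.5 and 80.9 (0.62 ± 0.25). For Ces1e the ranges of the 2 genotypes overlapped, for Cyp2e1 and Fmo2 they did not. These genes were also named by their p.

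Among the lower genes, none past the test, Cyp4f40 had 22.0 and 40.3 for WT, 15.8 and 18.7 for KO (-0.78 ± 0.32). Ces1a had 87.9 and 142 for WT, 43.1 and 116 for KO, where the ranges overlapped. Cyp19a1, the aromatase that makes estrogen, Ces2b and Ugt1a6b were also lower and rested on at most 23, 27 and 50 reads in these 4 libraries. Genes of the Ugt1a group share their last exons, so their separate values are uncertain.

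Het against WT gave more enzymes higher than lower, again with no call, and the excess depended on the libraries used. Limma called 0 of 110 (0% of all genes in either direction), as did voom, and an unadjusted p under 0.05 was reached by 3 enzymes higher (2.71% of all genes) and 4 lower (3.99%). The fitted difference was positive for 78 (52.6% of all genes) and negative for 32, with a median of 0.20 (0.02 over all genes). With water libraries alone 78 were higher (49.4% of all genes) and with odor libraries alone 60 (52.1%). Without the WT water library 57 were higher with a median of 0.04, and without the WT odor library the median was 0.43. Both Het libraries lay above both WT libraries for 19 enzymes (19% of all genes) and below them for 9 (18%).

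Gsta1 had the smallest p among those higher, with a difference of 1.31 ± 0.31 (SE; limma adjusted p = 0.706). Cyp46a1, the cholesterol hydroxylase known from brain neurons, stood (water, odor) at 32.3 and 17.2 for WT, 48.8 and 89.3 for Het (1.47 ± 0.45). Aldh1a2, which makes retinoic acid, had 144 and 115 for WT, 185 and 207 for Het, and Aldh9a1 254 and 309 against 354 and 445. In these 3 genes, also named by their p, both Het libraries were above both WT libraries.

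The enzymes lower in Het included Sult1d1 and Cyp2j12, which were among the enzymes highest in sorted neurons relative to MOE. Sult1d1 stood (water, odor) at 358 and 402 for WT, 383 and 398 for KO, 290.1 and 74.1 for Het, a difference from WT of -1.37 ± 0.53 (SE; limma adjusted p = 0.706). Cyp2j12 had 25.3 and 23.4 for WT, 24.7 and 23.4 for KO, 11.6 and 8.83 for Het (-1.22 ± 0.30), from 41 to 92 reads. Sult4a1, also higher in sorted neurons, had 240.2 and 264 for Het, within the range of 207 to 282 over the other libraries. The 13 mature neuron markers were all lower in Het, with a median of -1.06, and Omp had 1582 and 249 for Het against 5962 and 2717 for WT. The part of fewer neurons in these differences was not tested. Cyp2b13 had 17.7 and 12.1 for WT, 4.47 and 2.38 for Het, from 6 to 35 reads, Cyp4f40 10.5 and 19.2 for Het, and Cyp2a12 rested on 2 to 15 reads.

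Whether odor acted differently in KO was fitted against a common odor effect of WT and Het. More enzymes had a smaller or negative odor difference in KO than a larger one, and none passed. Limma called 0 of 110 (0% of all genes in either direction), as did voom, and an unadjusted p under 0.05 was reached by 10 enzymes lower (3.36% of all genes) and 4 higher (3.75%). The KO term was negative for 75 and positive for 35 (49.7% of all genes), with a median of -0.28 against -0.00 over all genes. The KO odor difference lay below both others for 48 enzymes (35.5% of all genes) and above both for 23 (35.3%). Against WT alone the median was -0.41, and against Het alone -0.12. These values use the same libraries as the odor comparison above and are not separate evidence.

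The 2 neighbouring cytochromes of family 1 differed in sign. Cyp1a2 was 673, 802 and 873 with water and 1502, 1491 and 762 with odor (WT, Het, KO), a KO term of -1.22 ± 0.35 (SE; limma adjusted p = 0.563). Cyp1a1, the classic target of the aryl hydrocarbon receptor, was 213, 277 and 184 with water and 281, 252 and 473 with odor, a KO term of 1.23 ± 0.37 (limma adjusted p = 0.586). Cyp1b1, the third member of the family, was 20.5, 20.1 and 10.7 with water and 12.7, 24.7 and 35.9 with odor (1.89 ± 0.65). Cyp1a1 and Cyp1b1 thus had their highest library in KO odor, and Cyp1a2 its highest in WT odor and Het odor. All were among the genes named for a small p of the KO term, which favours such a pattern.

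Most of the lower terms came from other families. Aldh3b2, an aldehyde dehydrogenase of lipid metabolism, was 83.5, 161 and 105 with water and 172, 229 and 47.2 with odor (-1.91 ± 0.39; limma adjusted p = 0.380). Gstm2 was 162, 211 and 249 with water and 211, 298 and 137 with odor (-1.30 ± 0.32), and Aldh1l2, a mitochondrial folate enzyme, 17.1, 25.2 and 23.9 against 25.3, 27.5 and 7.999 (-1.86 ± 0.57). In each of these 3 genes the KO odor library was the lowest of the 6. They were named for a small p of a negative KO term, which favours a low KO odor value. Their low KO odor values are therefore not separate evidence. Among all enzymes in MOE the KO odor library was the lowest for 16.4%, against 17.6% of all genes. Ugt1a8 gave the largest term, -4.99 ± 1.03, from 2 to 129 reads. Sult1e1 and Sult1a1 had positive terms of 1.36 ± 0.38 and 1.31 ± 0.46: both were lower with odor in WT and Het and higher in KO. Ugt1a8, Sult1e1 and Sult1a1 were also named for a small p of their KO term.

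In sorted neurons the pooled KO column was set against the WT column without a test. Of 90 enzymes, 28 were at least 2-fold higher in KO (17.5% of all genes) and 4 at least 2-fold lower (2.84%). The median difference was 0.43, against -0.13 over all 14744 genes, and 57 of 90 were higher (42.8% of all genes). The enzymes stood low in WT mOSN, where 48 of the 90 were under 10. Their median there was 8.91, against 36.5 over all genes, so many of these fold differences rest on low values. Library kit differed between these columns (ScriptSeq in WT, NuGEN in KO), so kit and genotype cannot be told apart. In Het, whose column mixed both kits, 14 were at least 2-fold higher (6.89%) and 12 lower (2.5%), with a median of 0.03. The 3 columns stood in the order WT, Het, KO from low to high for 28 enzymes (21.9% of all genes) and in the reverse order for 11 (32.7%).

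Ugt2a1 was the most abundant enzyme with a large difference: 175 in WT, 429 in Het and 780.3 in KO, a KO difference of 2.15 on the log2(value + 0.5) scale. Its value in MOE with water was 1984, 2384 and 2704. Sult1c1 stood at 133, 235 and 263. Cyp2w1, a cytochrome known from the developing gut and from colon tumours, was 4.38, 22.2 and 35.5, and Cyp11a1, which starts steroid synthesis from cholesterol, 1.21, 6.02 and 12.1. Aldh1b1 was 3.18, 8.50 and 14.2 and Aldh1l1, a cytosolic folate enzyme known as a glial marker, 2.90, 7.87 and 12.6. These 6 enzymes all followed the order WT, Het, KO. All but Sult1c1 were named for their KO difference, so KO above WT was set by that choice.

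The opposite order was seen for Cyp2s1 (55.2, 27.7 and 24.4), Gstp1 (15.8, 10.5 and 2.94) and Cyp2c44 (39.0, 33.6 and 18.3), while Cyp2j12 (111, 127 and 50.01) and Cyp2c55 (7.09, 12.7 and 3.33) had their highest value in Het. Gstp1 has a near-identical copy, Gstp2, so its value is uncertain. In Het, Gsta4 (49.7 in WT, 17.0 in Het and 27.4 in KO) and Gstt2 (16.3, 5.74 and 14.7) had their lowest value. So did Ugt2a3 (3.87, 0.746 and 5.56), Cyp3a59 (10.6, 3.43 and 6.15) and Cyp4f14 (8.87, 2.94 and 5.97). Cyp24a1, which degrades vitamin D, was 4.30, 14.3 and 12.7, and Cyp4b1 1.22, 3.94 and 2.27.

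Markers of other cells also differed between these columns. Of 12 sustentacular markers in the mOSN table, 10 were higher in KO than in WT (42.8% of all genes), with a median of 0.98. Their sum was 1444, 1495 and 1525 for WT, Het and KO, most of it from Epcam. Of 5 horizontal basal cell markers, all 5 were higher in KO, with a median of 2.45. They summed to 13.2 in WT, 20.6 in Het and 82.2 in KO. Higher in KO were also 7 of 8 Bowman gland markers (median 0.52) and 5 of 5 of globose basal and dividing cells (0.49). So were 6 of 6 of endothelium and mesenchyme (0.71), 4 of 6 of ensheathing glia (0.48) and 3 of 4 of macrophages (0.47). Of 5 blood markers 2 were higher (-1.04), and of 5 markers of respiratory epithelium 2 (-0.19). Krt18 was 71.4, 96.9 and 138 in WT, Het and KO. The part of RNA from such cells in the enzyme differences was not tested. The 12 enzymes with a mean of 1000 or more in MOE were split, 6 being higher in KO than in WT mOSN. Cyp2a4 was 6.12 in WT and 12.98 in KO and Cyp2f2 28.0 and 37.3, while Cyp2a5 was 92.6 and 56.2, Cyp2g1 132 and 80.9, and Cbr2 56.2 and 55.3.

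**Figure D5:**
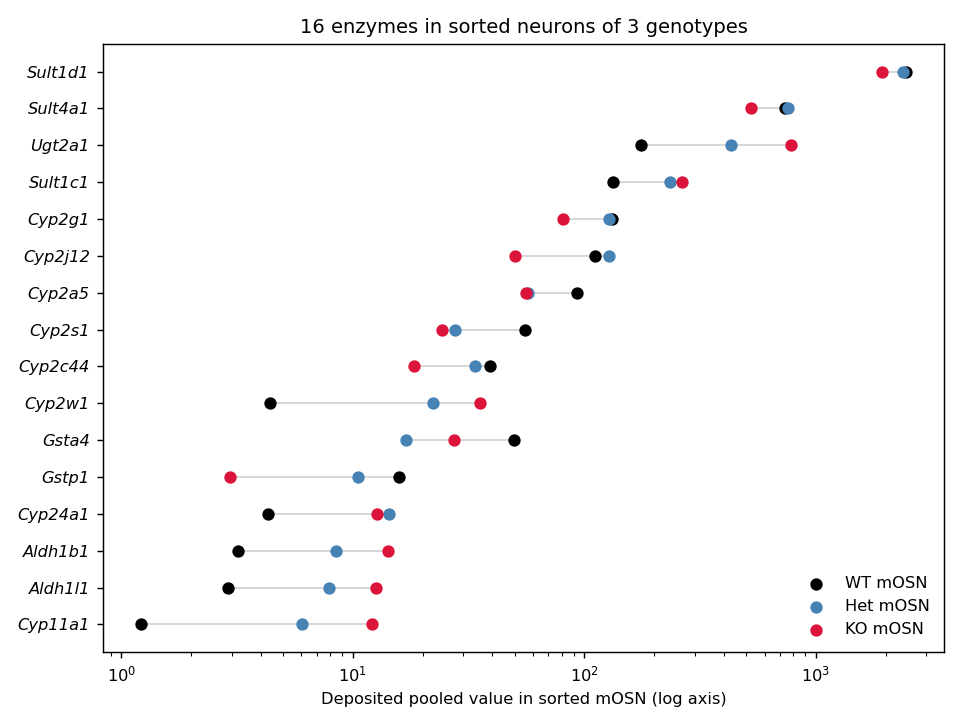
Authors' pooled value (log axis) of 16 enzymes in sorted mOSN, 1 point per genotype, with a grey line from lowest to highest; each point is 1 pooled value with no error. Ugt2a1 went from 175 in WT to 780.3 in KO, and Gstp1 from 15.8 to 2.94.

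Other genes of the pathway, a list of 54 partner enzymes, regulators and transporters, had 46 members in the MOE table. With odor 30 were higher (50.1% of all genes) and 16 lower, with a median of 0.07. In KO 30 were higher (48.5%) and 16 lower (0.07), and in Het 33 (52.6%) and 13 (0.19). The KO odor term was positive for 19 (49.7%) and negative for 27. Limma called none in any of the 4 comparisons. An unadjusted p under 0.05 was reached by 3 genes higher with odor (3.01% of all genes) and 0 lower (1.86%). In KO it was reached by 0 higher (1.27%) and 0 lower (0.966%), in Het by 4 higher (2.71%) and 0 lower (3.99%). For the KO odor term 2 were higher (3.75%) and 1 lower (3.36%). Por, the reductase that passes electrons to microsomal cytochromes, stood (water, odor) at 521 and 947 for WT, 628 and 1010.2 for Het, 719.9 and 761 for KO. Like Cyp2a5, it was lowest in WT water. Adh1, an alcohol dehydrogenase, was 741 in WT water and between 1271 and 1849 in the other libraries.

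Between sorted neurons and MOE the partner genes had a median difference near 0: over the 39 in both tables it was -0.01. In WT mOSN 14 of them were at least 2-fold lower (24% of all genes) and 7 at least 2-fold higher (17.3%). The 3 genes given next were picked from those 7. Nqo1, a quinone reductase, was 4098 in WT mOSN and 757 in WT MOE with water. Nfe2l2, the regulator that drives it, was 1033 and 173. Ahr, the aryl hydrocarbon receptor, was 62.4 and 22.8. These 3 genes were higher in the neurons, where Cyp1a1 was not listed and Cyp1a2 stood at 16.03.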

How the data were processed

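RNA was measured by rRNA-depleted RNA-seq in 12 of the 33 samples; the other 21 (DNA modification, histone marks, DNase, inputs) were not analysed here. Both deposited tables are named RPKM by the authors (reads scaled by gene length and library depth); the software named, per the submitters' processing notes, is DESeq, featureCounts, Picard 1.64, STAR 2.3.0 and Bowtie2 2.1, and the builds NCBIM37 and mm9, with no roles or order. The scaling is not given in the sources used here, so the values are called RPKM-scale values. For 14613 of 14613 MOE genes they came out as whole reads times library and gene factors (relative tolerance 1e-09); a factor common to all 6 libraries of a gene would not be seen in these recovered reads. Of 14751 mOSN rows, 7 had no values and were left out.

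Genes at 0.5 or more in at least 2 MOE columns were kept (14602; all 110 enzymes). Values were tested as log2(value + 0.5) with limma 3.58.1 in R 4.3.3 (mean-variance trend, two-sided, Benjamini-Hochberg over all genes, threshold 0.05), with genotype and treatment as terms (2 residual degrees of freedom). A KO odor term was added to these terms in a further fit with 1 residual degree of freedom. There WT and Het are taken to share 1 odor effect. The error is what these terms leave over in 6 libraries, so a genotype-dependent response counts as error. Whether libraries came from separate animals is not given, so the p-values reflect spread between single libraries, which may be technical. Scripts were tested on simulated data. The limma test planned for mOSN if its columns were single libraries was not run, as they are pooled. Markers and pathway genes were taken from fixed lists. Named were, per family, the 3 highest MOE means, per MOE comparison the 5 smallest p in each direction, per mOSN comparison and for mOSN against MOE the 5 largest differences in each direction, and members known from olfactory mucosa; other members are named as examples and were chosen after their values were seen. The values of 1 member are not reported here. The members, lists and rules were chosen with earlier results of these data known. Tables and figures were made with Python 3.11.15, pandas 2.3.3 and matplotlib 3.10.9. Recovered reads summed to 9410063 to 17639584 per MOE library over the listed genes alone, so full depth is not known. Depth is also unknown for mOSN.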

Additional observations from a re-analysis of the deposited data

How the results depend on the processing

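No enzyme was called by limma or voom in any of 58 alternative fits of the 4 MOE comparisons (pseudocounts, filters, scaling, trend, block, libraries left out, voom); the smallest adjusted p of an enzyme was 0.203, for Het against WT without the WT water library. Leaving out libraries or pairs moved the enzymes' median from 0.07 to 0.33 for odor, from -0.19 to 0.22 for KO against WT, from 0.0447 to 0.43 for Het against WT and from -0.41 to -0.12 for the KO odor term. The KO median was negative without the WT water library (-0.19), without the KO water library (-0.14) and with odor libraries alone (-0.19); the cause was not tested. Without the WT odor library the Het median was 0.43. Leaving out 1 library of a genotype gives the odor differences of the fit without that pair, with other adjusted p. Leaving out both Het or both KO libraries was added after seeing the data. Other settings kept the medians at 0.18 to 0.24 (odor), 0.03 to 0.05 (KO), 0.16 to 0.22 (Het) and -0.29 to -0.26 (KO odor term). Enzymes 2-fold apart in mOSN, 32 in KO and 26 in Het, numbered 31 to 36 and 22 to 28; those 2-fold lower in mOSN than in MOE, 46 in WT and 42 in KO, numbered 45 to 51 and 41 to 43, the 51 and 43 against the odor libraries; at 4-fold there were 38 and 34. No paired analysis was possible because the mOSN libraries that share replicate numbers are pooled in the columns and the MOE libraries carry no numbers; the MOE odor fit does compare libraries within genotype. Depth limits the scarce enzymes: values from fewer than 10 reads in a library carry a large counting error.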
